A study of Mus musculus with 9 samples.

Results

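The glypicans Gpc1 to Gpc6 and the heparan sulfatases Sulf1 and Sulf2 were followed as 1 family of 8 genes in nuclei of the adult mouse spinal cord. They were chosen by name, with Gpc3, Gpc4 and Sulf1 known beforehand to differ between lumbar/sacral and more rostral levels in these data. Of the 8 genes, 7 were among the 21457 features measured, and Gpc2 was not analysed here. The data were deposited for 16042 cholinergic nuclei (5054 skeletal motor neurons (MNs), 5613 visceral MNs and 5375 cholinergic interneurons) in 21 clusters: S1 to S3, V1 to V10 and I1 to I8. Single-nucleus RNA sequencing was done on GFP+ nuclei of mice aged 8 weeks, of the strain Chat-IRES-Cre::Sun1-sfGFP and the genotype Chat-iCre:+/wt; SUN-SfGFP:+/wt, and no group lacked an allele. Cre under the choline acetyltransferase locus puts the nuclear GFP in any cell that expresses or once expressed Chat, and nuclei rather than whole cells were read, so the values are of nuclear RNA. The 12 mice made 3 pools of 4, with 2 males and 2 females in replicate 1, males in replicate 2 and females in replicate 3. From each pool, cord tissue of 3 levels (cervical, thoracic, lumbar/sacral) was processed apart, giving 9 libraries. Cervical and thoracic libraries together are called rostral.

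Glypicans are proteoglycans that are tied to the outer leaflet of the cell membrane by a lipid anchor and carry heparan sulfate chains. The sulfate pattern of these chains sets how they bind Wnt, Hedgehog, FGF and BMP ligands and the axon guidance protein Slit. Sulf1 and Sulf2 are secreted or cell-surface enzymes that take sulfate groups off finished chains, and both families are known from the developing spinal cord, where they shape the spread of ventral morphogens.

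In GRCm38, Gpc4 (chrX:52053021-52165252, minus strand) and Gpc3 (chrX:52272426-52613950, minus strand) are neighbours 107173 bases apart. Gpc5 (chr14:115092215-116525179, plus strand) and Gpc6 (chr14:116925315-117976544, plus strand) form another pair, 400135 bases apart, and with 1432965 and 1051230 bases they are the longest of the family. Gpc1 (chr1:92831645-92860779) and Sulf1 (chr1:12692277-12861192) lie on the plus strand and Sulf2 (chr2:166073089-166155663) on the minus strand. The 250 bases before the start of Gpc3 (chrX:52613975-52614224, minus strand) and of Gpc5 (chr14:115091965-115092214, plus strand) are printed because these 2 genes differed in opposite directions between levels of the cord in visceral MNs. Both are RefSeq sequences of GRCm38.p6, 5′ to 3′, with matches on either strand in capitals. The letters GGGCGG were searched as the GC box. The TATA box was taken as TATAAA, and the CAAT box was taken as CCAAT. As the core of homeodomain sites, TAATTA was used. No match overlapped another in these windows, and the table held an entry for 5 of the 8 genes.
Gpc3: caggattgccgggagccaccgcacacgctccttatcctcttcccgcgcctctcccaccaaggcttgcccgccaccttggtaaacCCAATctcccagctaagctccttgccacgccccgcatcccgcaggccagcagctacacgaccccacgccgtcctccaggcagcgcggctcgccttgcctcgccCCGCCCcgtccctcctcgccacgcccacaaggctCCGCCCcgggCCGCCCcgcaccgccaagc
Gpc5: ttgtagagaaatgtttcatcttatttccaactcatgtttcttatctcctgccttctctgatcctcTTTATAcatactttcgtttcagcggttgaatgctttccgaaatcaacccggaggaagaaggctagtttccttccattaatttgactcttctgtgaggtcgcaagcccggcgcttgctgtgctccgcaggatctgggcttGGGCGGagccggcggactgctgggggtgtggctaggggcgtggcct
The Gpc3 window held 3 GC boxes, 1 CAAT box and 25 CG pairs, and the Gpc5 window held 1 GC box, 1 TATA box and 12 CG pairs. Of 32851 windows of this length before RefSeq starts, 32.7% held a GC box, 33.8% a CAAT box, 12.4% a TATA box and 4.84% the homeodomain core, and the median window held 6 CG pairs.

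The class labels were checked against their markers. Tns1 stood for skeletal MNs, Zeb2 and Fbn2 for visceral MNs, and Pax2 and Mpped2 for interneurons, and each of these genes was higher in every sum of its own class than in any sum of the other classes. Of the cholinergic genes, Chat and Slc5a7 together reached 306 to 747 counts per 1000000 (CPM) in every sum over a library and class. Median totals per nucleus were 4712 to 7175 corrected counts in the lumbar/sacral and 7087 to 16127 in the rostral libraries, and 33 of 16009 barcodes occurred in more than 1 library. Xist reached 530 to 798 CPM in the female pool and at most 2.07 CPM in the male pool, as the sex labels say. In 2 cases a library stood against its region label. Hoxa9 in skeletal MNs was 9.04 CPM in the library labelled cervical replicate 2 but 0.145 and 0 CPM in the other cervical ones, and 0.629 CPM in the library labelled thoracic replicate 2 but 11.9 and 15.8 CPM in the other thoracic ones. Over 18 Hox genes and 3 classes, both lay nearer to the other label (root mean square log2 distance 0.285 and 0.344) than to their own (0.672 and 0.713). Groups were kept as labelled, and results that rest on these libraries are given without them too. The rostral set of 6 is the same whichever of the 2 labels each carries.

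Which cholinergic class holds each gene was asked first. Gpc3, Gpc4, Gpc5 and Gpc6 were higher in interneurons than in either MN class, whereas Sulf2 was highest in skeletal MNs. Levels are the authors' corrected counts summed per library and class and scaled to CPM, and differences were tested with limma on log2(CPM + 5), called at an adjusted p under 0.05 and a log2 difference of at least 1. All 7 genes passed the filter of 10 CPM in 3 sums, but Gpc4 passed through interneurons alone and Sulf1 through lumbar/sacral visceral MNs alone. The classes were themselves drawn by clustering these nuclei, so the p-values are no independent evidence that the classes differ.

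Gpc3, an X-linked glypican that binds Hedgehog and restrains growth, was at 92.9 CPM in the lowest, 117 in the median and 153 in the highest of the 9 interneuron sums. In skeletal MNs it ran from 0.786 over 2.36 to 3.64 CPM, and in visceral MNs from 1.99 over 10.7 to 52.7 CPM. No skeletal or visceral sum reached the lowest interneuron sum. Skeletal MNs were lower than interneurons by a log2 difference of -4.07 (SE 0.29, adjusted p = 1.05e-10) and visceral MNs by -2.71 (SE 0.29), each in 9 of 9 libraries. Skeletal MNs were also lower than visceral MNs (-1.36, SE 0.29), in 7 of 9 libraries. No p is given for either difference that involves visceral MNs. Gpc3 was chosen on its difference between levels of the cord, which lies in these visceral sums.

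Gpc4, a glypican known from astrocytes for its part in synapse formation, was all but limited to interneurons, which held 93.3% of its 2175 corrected counts. Its interneuron sums ran from 29.0 over 59.6 to 74.2 CPM, its skeletal sums from 0.692 to 3.25 CPM and its visceral sums from 0.277 to 4.52 CPM. Skeletal MNs differed from interneurons by -3.01 and visceral MNs by -3.03 on the log2 scale (SE 0.17 each), in 9 of 9 libraries each. No p is given for Gpc4, because the filter admitted it through interneurons.

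Gpc5, a glypican reported to help Hedgehog signalling, reached 1940 CPM in the lowest, 3005 in the median and 3829 in the highest interneuron sum. Skeletal sums lay between 308 and 530 CPM, and visceral sums spread from 113 to 2041 CPM. Both MN classes were lower than interneurons in 9 of 9 libraries, by -2.78 in skeletal (SE 0.37, adjusted p = 1.47e-06) and -2.95 in visceral MNs (SE 0.37, adjusted p = 9.66e-07). Gpc6, a close relative of Gpc4, showed the same order of classes with 1280 to 1996 CPM in interneurons, 262 to 809 CPM in skeletal and 276 to 842 CPM in visceral MNs. Its log2 differences from interneurons were -1.77 (SE 0.12, adjusted p = 1.95e-11) and -1.88 (SE 0.12, adjusted p = 1.19e-11), again in 9 of 9 libraries. For neither gene did the 2 MN classes pass the test against each other. For Gpc5 that test averages over levels of the cord. In rostral libraries its skeletal sums (354 to 530 CPM) lay above its visceral sums (113 to 234 CPM). In lumbar/sacral libraries the skeletal sums lay below the visceral ones (308 to 440 against 979 to 2041 CPM).

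Sulf2 had the opposite order. Its skeletal sums ran from 33.4 over 54.9 to 68.1 CPM, its visceral sums from 17.6 over 33.6 to 47.7 CPM and its interneuron sums from 4.16 over 7.74 to 16.5 CPM. No interneuron sum reached the lowest visceral sum. Skeletal MNs were above interneurons by 2.05 (SE 0.12, adjusted p = 1.62e-12) and visceral MNs by 1.41 (SE 0.12, adjusted p = 1.33e-09), each in 9 of 9 libraries. Skeletal MNs also exceeded visceral MNs in 9 of 9 libraries, with an adjusted p of 4.80e-05 but a log2 difference of 0.64, under the size asked for.

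Gpc1 is a widely expressed glypican. Its sums spanned 11.002 to 24.7 CPM in skeletal MNs, 22.2 to 37.1 CPM in visceral MNs and 20.5 to 33.2 CPM in interneurons. Skeletal MNs were lower in 9 of 9 libraries, with log2 differences of -0.62 from visceral MNs (adjusted p = 7.45e-07) and -0.48 from interneurons (adjusted p = 2.98e-05) that passed on p but not on size. Sulf1 was near 2 CPM in skeletal MNs (2.15 ± 1.22, SD, n = 9) and interneurons (2.12 ± 1.08, SD, n = 9). Visceral MNs had a median of 2.31 CPM, with 3 sums, the lumbar/sacral ones, at 45.3 to 71.01 CPM. No class test is given for Sulf1, since the filter and the choice of genes both used those 3 sums.

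With Gpc4 and Sulf1 set aside, 3 of the other 5 genes were called lower and 1 higher in skeletal MNs than in interneurons (all genes tested: 4.96% lower, 5.69% higher), and 3 lower and 1 higher in visceral MNs than in interneurons (all genes: 3.8% and 3.95%, 7.75% in all). Between skeletal and visceral MNs, 1 (Gpc3) was called lower and 0 higher (all genes: 5.59% and 6.22%). That 1 call, and the lower call of Gpc3 in visceral MNs than in interneurons, rest on visceral sums that the choice of genes used.

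**Figure D1:**
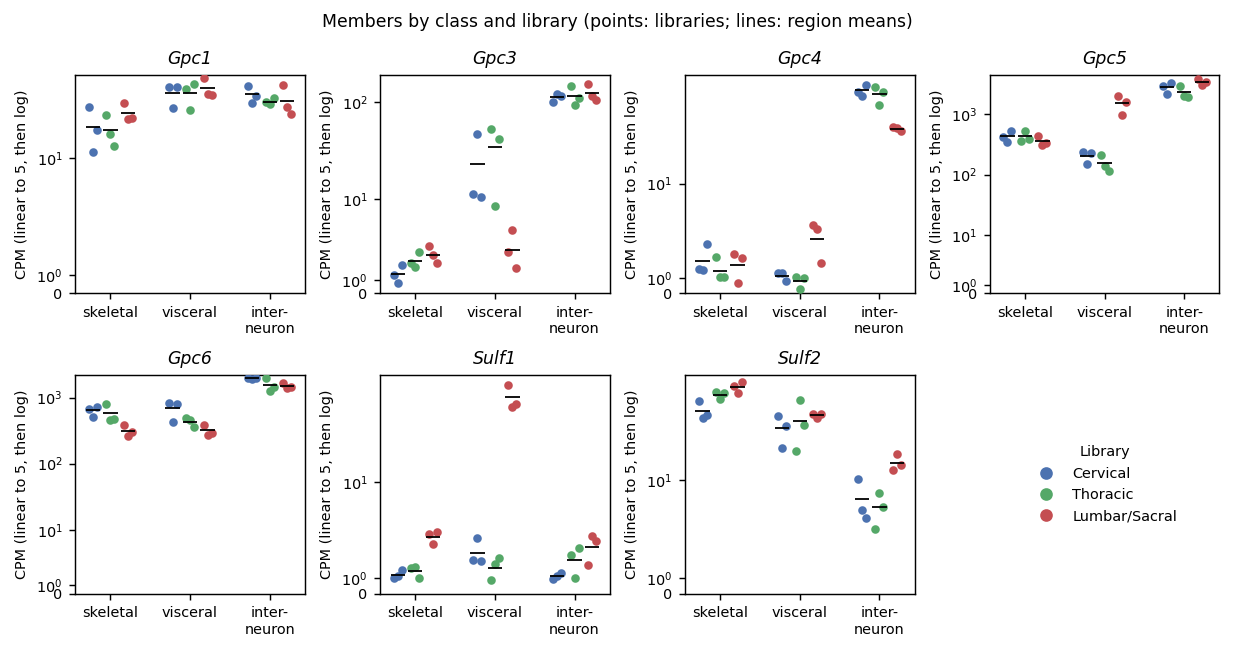
CPM of each member by class (y axis linear to 5 CPM, logarithmic above); each point is 1 library, coloured by region, and lines are means of 3 libraries. Gpc4 sits between 29.0 and 74.2 CPM in interneurons and at 4.52 CPM or less elsewhere, while Sulf1 stands out in the 3 lumbar/sacral visceral sums, at 45.3 to 71.01 CPM.

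Within the classes, single clusters carried most of several genes. Levels per cluster are means ± SD over libraries in which the cluster had 10 or more nuclei, as a description without a test, since the clusters were drawn on the same genes. Neighbours in the order were taken as apart where the mean less 1 SD of the upper lay above the mean plus 1 SD of the lower.

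Gpc3 was highest in I7 (416 ± 102 CPM, n = 6), I1 (277 ± 51.5 CPM, n = 9) and I3 (153 ± 46.5 CPM, n = 9), and among MN clusters V2 alone reached 10 CPM (134 ± 110 CPM, n = 9). Only I1 and I3 were apart as neighbours. In I7, 77.6% ± 5.81 (SD, n = 6) of nuclei had at least 1 corrected count of Gpc3, against 1.61% ± 0.545 (SD, n = 9) of skeletal MN nuclei, where the gene is near background. I5, I6 and I4 held 47.2 ± 21.6, 39.9 ± 15.5 and 22.4 ± 11.6 CPM, and the other 14 clusters at most 5.40 CPM.

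Gpc4 was read in a different set. I5 (222 ± 53.6 CPM) and I6 (185 ± 63.0 CPM, n = 9 each) did not differ beyond their spread, I7 followed at 34.3 ± 18.1 CPM (n = 6), and the other 18 clusters had at most 8.55 CPM. I6 was apart from I7, and I7 from the next, V8. Where both genes were read, in I7, 97 of 160 nuclei had Gpc3 alone, 28 both and 2 Gpc4 alone, whereas in I5, 320 of 584 nuclei had Gpc4 alone, 126 both and 26 Gpc3 alone.

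Gpc5 was read in all 21 clusters, from 84.2 ± 78.3 CPM in I8 to 6353 ± 1684 CPM in I2, with I7 at 6020 ± 1152 CPM and I3 at 4153 ± 745 CPM. The interneuron class was therefore split: I1 to I4 and I7 held at least 2541 CPM, but I5, I6 and I8 at most 580 CPM. V8 had the highest mean among MN clusters, 3196 ± 925 CPM (n = 3), from lumbar/sacral libraries only. At that level V2 held 1358 to 2142 CPM and V6 572 and 3305 CPM, which overlapped the 2138 to 3848 CPM of V8. In skeletal MNs S1 held 1017 ± 174 CPM against 270.5 ± 138 in S2 and 87.9 ± 53.9 in S3 (n = 9 each). The step between I4 and S1 was the only one larger than the spread.

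Gpc6 also ran over all clusters, from 79.2 ± 54.6 CPM in V9 to 3187 ± 530 in I2, 2818 ± 578 in I6 and 2437 ± 412 in I7, with no neighbours apart. Unlike Gpc5, it was high in I5 and I6 and low in V8 (199 ± 89.4 CPM, n = 3), and V3 (1339 ± 833 CPM) and V7 (1125 ± 500 CPM, n = 9 each) led the MN clusters. The interneuron class was split here too. I1, its largest cluster with 1520 nuclei, held 471 ± 189 CPM, a mean below those of V3, V7 and S3 (662 ± 266 CPM, n = 9 each).

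Sulf1 was limited to V8 (103 ± 18.5 CPM, n = 3), V3 (23.8 ± 36.8 CPM, n = 9), V2 (20.1 ± 28.4 CPM, n = 9) and V5 (17.0 ± 21.8 CPM, n = 7), with the other 17 clusters at most at 6.73 CPM. V8 was apart from V3 by this rule, but V8 counted lumbar/sacral libraries only, while the V3 mean took in rostral ones. Among lumbar/sacral libraries V3 held 98.2, 40.7 and 67.9 CPM and V8 120, 106 and 83.6 CPM, so these overlapped. Sulf2 was broad in MN clusters, from V10 (63.8 ± 26.1 CPM, n = 7) and S3 (60.9 ± 16.7 CPM, n = 9) down to V7 (9.31 ± 6.62 CPM), and among interneurons only I2 (26.1 ± 19.0 CPM) and I6 (16.5 ± 12.4 CPM, n = 9 each) reached 10 CPM. Gpc1 was flat, from 16.5 ± 4.82 CPM in S1 to 49.4 ± 8.89 CPM in I5, and neither Gpc1 nor Sulf2 had neighbours apart.

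**Figure D2:**
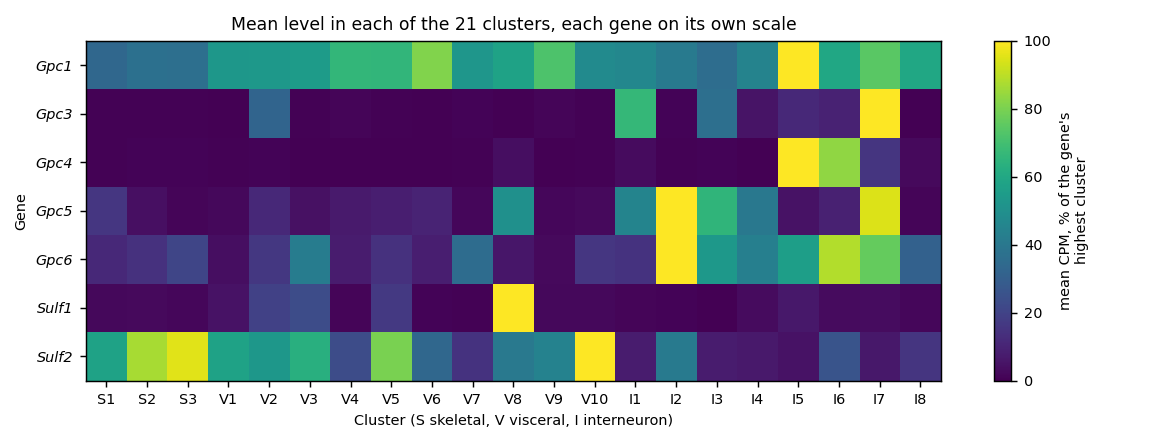
Mean CPM of each member in each of the 21 clusters, as a percent of the same gene's highest cluster, so that colours compare clusters within a row and not genes. Gpc3 peaks in I7 (416 CPM), Gpc4 in I5 (222 CPM), Gpc5 and Gpc6 in I2, Sulf1 in V8 (103 CPM) and Sulf2 in V10.

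The genes most like each member over the 21 cluster means were sought among 10842 genes by Pearson's r of log2(CPM + 5), a description in which all points share libraries and depth. For Gpc3 they were A630012P03Rik (r = 0.95) and Gm14582 (r = 0.95), then Svbp (r = 0.77). The first 2 are antisense genes that lie on the opposite strand within or across Gpc3. The sources used here do not say how the counting treated the strand, and whether these genes share reads with Gpc3 was not tested. Egf (r = 0.90), Ank (0.88) and Slc7a5 (0.87) were most like Gpc4, and Mrc2 (0.92), Gml2 (0.86) and Clcn5 (0.84) most like Sulf1. A830018L16Rik (0.92), AC124532.2 (0.85) and Pappa (0.84) were nearest to Sulf2, and no gene exceeded 0.84 for Gpc1, Gpc5 or Gpc6: Col25a1 (0.83), Gm45844 (0.82) and Ppp6r2 (0.83) led. Among the members themselves r ran from -0.64 (Gpc3 with Sulf2) to 0.56 (Gpc3 with Gpc5).

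Levels of the cord were compared next, with the 3 lumbar/sacral libraries set against the 6 rostral ones. Because the genes were chosen on this contrast, its values are a description and carry no test. In visceral MNs Gpc3 was lower and Gpc5, Sulf1 and Gpc4 were higher in lumbar/sacral than in any rostral library. In skeletal MNs Gpc6 was lower and Sulf1 higher, and in interneurons Gpc4 was lower and Sulf2 higher. Over all genes tested, libraries did not overlap for 5.31% higher and 4.32% lower (9.63% in all) in visceral MNs. The shares were 2.31% and 0.46% (2.77%) for skeletal sums and 0.877% and 1.69% (2.57%) for interneuron sums. They are over genes with at least 10 CPM in 3 sums of the class. Gpc4 in visceral MNs and Sulf1 in skeletal MNs were below that filter, so these shares do not apply to them. The same shares within clusters are given after the members' values.

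For Gpc3, the rostral visceral sums were 11.3, 47.8 and 10.7 CPM in cervical replicates 1 to 3 and 52.7, 8.59 and 42.3 CPM in the thoracic ones, against 3.23, 4.89 and 1.99 CPM in lumbar/sacral. The rostral sums fell into a low and a high set, and cervical replicate 2 and thoracic replicate 2, the libraries against their Hox genes, lay in the sets of the other label. The log2 difference was -1.77 (SE 0.43), and -1.80 without those 2 libraries. In interneurons the lumbar/sacral sums of 107 to 153 CPM overlapped the rostral sums of 92.9 to 148 CPM.

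The visceral difference in Gpc3 sat in V2. There the 6 rostral libraries ranged from 137 to 283 CPM (mean 198 ± 65.4, SD) and the lumbar/sacral ones held 3.58, 6.68 and 4.00 CPM, from 6 corrected counts in 234 nuclei against 1198 in 537 rostral nuclei. A corrected count of Gpc3 was found in 63.5% ± 18.0 (SD, n = 6) of rostral and 2.27% ± 0.700 (SD, n = 3) of lumbar/sacral V2 nuclei, or 53.1% and 1.85% with each nucleus thinned to 4600 corrected counts, so that the lumbar/sacral share is near that of skeletal MNs. V2 made up 15.0% ± 2.77 (SD, n = 3) of lumbar/sacral and 11.9% ± 6.72 (SD, n = 6) of rostral visceral nuclei. The antisense genes A630012P03Rik and Gm14582 were at 0 CPM in lumbar/sacral V2 and at 4.81 to 95.5 and 7.43 to 74.6 CPM in rostral V2. In I7 the order was turned, with Gpc3 at 436 to 558 CPM in lumbar/sacral and 274 to 377 CPM in the 3 rostral libraries that had 10 nuclei.

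Gpc5 was at 234, 152, 229, 208, 140 and 113 CPM in the rostral visceral sums and at 2041, 979 and 1619 CPM in lumbar/sacral, a log2 difference of 3.06 (SE 0.36). The cluster V8, with 463 lumbar/sacral and 4 rostral nuclei, held 3603, 2138 and 3848 CPM. Of 18 clusters with enough nuclei at both levels, 4 were higher without overlap, 2 lower, and 12 overlapped, V1, V3, V5 and V7 among them. V2 held 1358 to 2142 CPM in lumbar/sacral and 70.3 to 382 CPM in rostral libraries, and V4 348 to 1694 CPM against 113 to 286 CPM. V6 had 30 lumbar/sacral nuclei and reached 10 in 2 of those libraries, where the values were 572 and 3305 CPM against 65.5 to 343 CPM. Outside visceral MNs, I6 held 1105 to 1378 CPM in lumbar/sacral and 89.3 to 380 CPM in rostral libraries, whereas S1 was lower in lumbar/sacral (691 to 959 against 970 to 1251 CPM), as was I7.

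Sulf1 was low in visceral MNs of rostral libraries and higher in every lumbar/sacral one. Its rostral visceral sums ran from 0.869 over 2.15 to 3.64 CPM, and its lumbar/sacral sums were 71.01, 45.3 and 48.3 CPM, with a log2 difference of 3.04 (SE 0.20). V8 held 120, 106 and 83.6 CPM, and 35.6% ± 4.70 (SD, n = 3) of its nuclei had a corrected count. The gene was not limited to V8: lumbar/sacral V2 held 26.7 to 71.6 CPM against 0 to 10.0 CPM in rostral V2, V3 40.7 to 98.2 against 0 to 2.79 CPM, and V5 26.7 to 49.7 against 0 to 1.496 CPM. V4 and V7 did not share this, with 1.22 ± 2.09 and 0.516 ± 1.27 CPM over all 9 libraries. The skeletal difference was small and low (3.23 to 4.02 against 1.01 to 1.73 CPM), from 14 to 17 corrected counts per lumbar/sacral library.

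In V2 the 3 genes met in 1 cluster, with Gpc3 lower and Gpc5 and Sulf1 higher in lumbar/sacral libraries. Of the genes tested in V2, 3.83% were higher and 3.74% lower without overlap. In the other visceral clusters with enough nuclei at both levels these shares, higher then lower, were 3.05% and 2.46% in V1, 2.62% and 2.86% in V3, 5.11% and 2.58% in V4, 6.95% and 3.98% in V5, 9.78% and 15.3% in V6, and 4.35% and 1.85% in V7. In skeletal MNs they were 2.29% and 0.678% in S1, 1.47% and 0.761% in S2, and 3.66% and 0.63% in S3. In interneurons they were 0.715% and 0.534% in I1, 1.74% and 2.38% in I2, 0.867% and 0.656% in I3, 0.918% and 0.775% in I4, 1.67% and 0.916% in I5, 2.83% and 1.79% in I6, 4.82% and 5.04% in I7, and 2.11% and 1.63% in I8. Of 126 pairs of member and cluster, taken without a filter on level, the libraries did not overlap in 22. The 2 libraries against their Hox genes are both rostral, so leaving them out can only narrow the rostral range. None of the 22 could be lost that way, so their staying is no check of the labels. Without those libraries 4 more (Gpc3 in I3, Gpc6 in I5 and I7, Sulf2 in V5) did not overlap, for 26 in all. Of the astrocyte markers Aqp4, Gfap, Slc1a3, Slc1a2, Gja1 and Aldh1l1, the summed level in visceral MNs was 33.3 to 49.7 CPM in lumbar/sacral and 18.6 to 29.4 CPM in rostral libraries. Most of that sum was Slc1a2 (24.4 ± 11.6 CPM in visceral MNs, 48.8 ± 10.5 CPM in interneurons, SD, n = 9 each). The other markers averaged 0.169 to 2.14 CPM in visceral MNs. The part of these markers in the results was not tested.

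**Figure D3:**
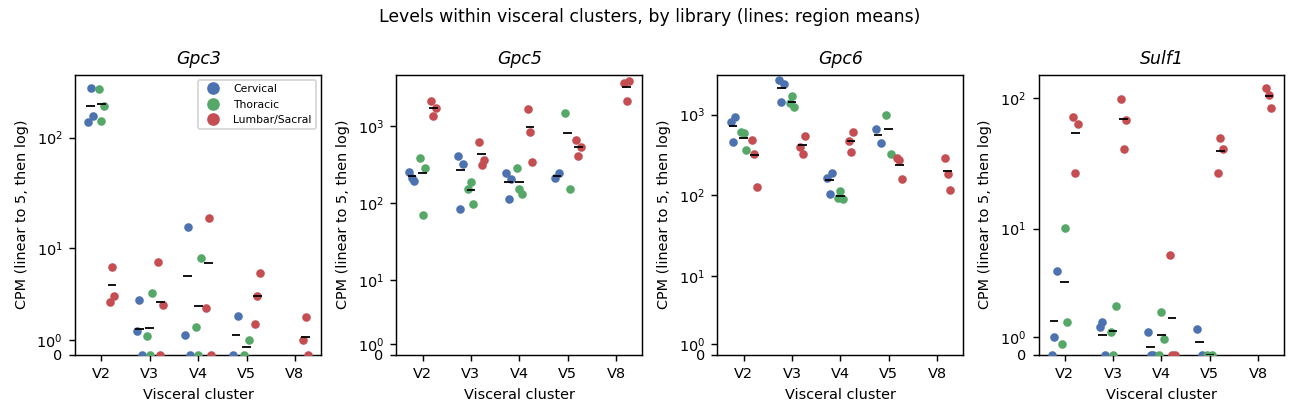
CPM of Gpc3, Gpc5, Gpc6 and Sulf1 within 5 visceral clusters (y axis linear to 5 CPM, logarithmic above); points are libraries with at least 10 nuclei of the cluster, coloured by region, and lines are region means. In V2, lumbar/sacral points lie at 3.58 to 6.68 CPM for Gpc3 and at 1358 to 2142 CPM for Gpc5, and V8 has lumbar/sacral points only.

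Gpc4 in interneurons was 64.3, 59.6 and 74.2 CPM in cervical, 70.7, 49.6 and 64.7 CPM in thoracic and 31.5, 30.7 and 29.0 CPM in lumbar/sacral libraries, a log2 difference of -0.95 (SE 0.08). Its clusters were scarcer there: I5 made up 7.24% ± 0.964 of lumbar/sacral (SD, n = 3) and 13.6% ± 1.74 of rostral interneuron nuclei (SD, n = 6), and I6 7.21% ± 1.85 and 13.6% ± 2.97. Within I5 the levels overlapped (172 to 252 against 150 to 298 CPM), and within I6 they overlapped at 75.4 to 171 against 152 to 270 CPM. The share of I6 nuclei with Gpc4 did not overlap (24.6 to 44.6% in lumbar/sacral, 65.5 to 92.6% in rostral libraries). In I5 that share overlapped, at 64 to 74.6% against 73.1 to 95.7%. These shares are not thinned to an equal depth. With the 6 interneuron clusters found in all libraries held at 1 mix, the log2 difference was -0.32 and the libraries overlapped. In visceral MNs the difference ran the other way (1.99 to 4.52 CPM in lumbar/sacral, 0.277 to 1.37 CPM in rostral libraries), but on 4 to 14 corrected counts per lumbar/sacral library, most of them in V8.

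**Figure D4:**
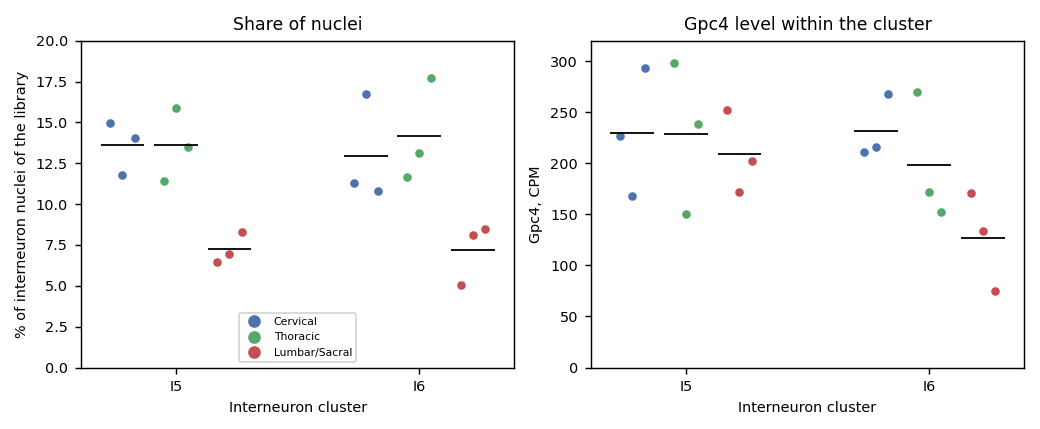
Left, share of interneuron nuclei in I5 and I6, in percent, by library; right, Gpc4 in CPM within the same clusters; lines are region means of 3 libraries. Lumbar/sacral shares lie at 5.08 to 8.46%, below every rostral share, while the Gpc4 levels overlap.

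Gpc6 in skeletal MNs ran from 459 over 593 to 809 CPM in the rostral libraries and was 390, 262 and 298 CPM in lumbar/sacral, a log2 difference of -0.92 (SE 0.22). S1 (169 to 249 against 271 to 623 CPM) and S3 (317 to 465.6 against 542 to 1029 CPM) showed it, while S2 overlapped. In visceral MNs the class sums overlapped (276 to 391 against 358 to 842 CPM), and clusters differed in both directions. V3 held 323 to 543 CPM in lumbar/sacral and 1236 to 2649 CPM in rostral libraries, V5 158 to 288 against 324 to 1005 CPM, but V4 346 to 604 against 89.6 to 190 CPM. Sulf2 in interneurons was 12.1, 16.5 and 13.4 CPM in lumbar/sacral and 4.16 to 10.1 CPM in rostral libraries (log2 difference 0.75, SE 0.15), with I2 at 43.3 to 54.7 against 8.22 to 19.8 CPM and I6 at 22.9 to 42.8 against 0 to 14.7 CPM. Gpc1 overlapped between levels in all 3 classes and all 18 clusters.

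The levels were also compared with the clusters held at a fixed mix. Over V1, V2, V3, V4 and V7, the visceral clusters with at least 10 nuclei in all 9 libraries, the log2 difference was -2.36 for Gpc3, 2.04 for Gpc5, 2.07 for Sulf1 and -1.01 for Gpc6, and the libraries of the 2 levels did not overlap for these 4. As they stood, the class sums gave -1.77, 3.06, 3.04 and -0.74, with overlap for Gpc6. Gpc4 in visceral MNs went from 0.51 to 0.20 and overlapped. These values leave out V8 and the other clusters not found in all libraries as well as fixing the mix; over the same 5 clusters at their own mix they were -2.04 for Gpc3, 2.26 for Gpc5 and 2.36 for Sulf1. Skeletal Gpc6 was -0.96 with the mix held, and Sulf2 in interneurons 0.94.

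**Figure D5:**
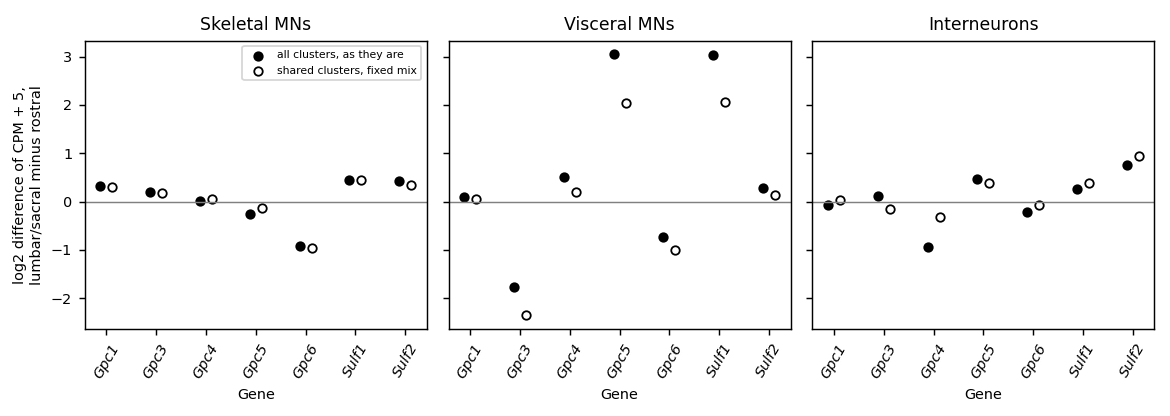
Log2 difference of CPM + 5, lumbar/sacral minus rostral, for each member by class; filled points use all clusters as they are and open points use clusters shared by all libraries at a fixed mix. Gpc4 in interneurons goes from -0.95 to -0.32, and in visceral MNs Gpc3 goes from -1.77 to -2.36, Gpc5 from 3.06 to 2.04 and Sulf1 from 3.04 to 2.07.

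Cervical and thoracic libraries were compared with each other in each class, a contrast that played no part in the choice of genes. Of 16 tests of a member in a class, 0 were called, with adjusted p from 0.719 to 0.996. Sulf1 in visceral MNs is among them, though it passed the filter through lumbar/sacral sums alone. It averaged 2.65 CPM in cervical and 1.71 CPM in thoracic libraries, so its test could hardly call a difference. Over all genes, limma called 0 of 9999 in skeletal, 0 of 10031 in visceral and 0 of 9805 in interneuron sums (0.0% each). An unadjusted p under 0.05 was seen for 607, 160 and 189 of these. The unadjusted p was under 0.05 for Sulf2 in skeletal MNs (38.7 CPM cervical and 53.2 CPM thoracic on average, log2 difference -0.42, adjusted p = 0.719) and for Gpc6 in visceral MNs (689 and 431 CPM, 0.62, adjusted p = 0.945, or 0.97 with adjusted p = 0.293 without the 2 libraries against their Hox genes). For Gpc3 in visceral MNs the log2 difference of -0.49 (SE 0.60, adjusted p = 0.945) became -1.71 (SE 0.25, adjusted p = 0.0797) without the same libraries, which leaves 2 against 2: 11.3 and 10.7 CPM cervical, 52.7 and 42.3 CPM thoracic. That is past an unadjusted p of 1.85e-04 but not past the adjusted threshold.

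Male and female pools were compared because Gpc3 and Gpc4 are X-linked, with region as a term and 3 libraries a side. Of 14 tests of a member, 0 were called (adjusted p from 0.435 to 0.997), against 7 of 9660 genes in skeletal, 5 of 9744 in visceral and 5 of 9594 in interneuron sums (0.0725%, 0.0513% and 0.0521%). Log2 differences of the members, male minus female, ran from -0.33 to 0.15. Each sex is 1 pool of mice cut in 3, so sex and pool cannot be told apart.

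The genes that build, sulfate and release heparan sulfate, and other carriers and partners of it, were read from lists beside the members. Of all genes tested, 6.22% were called higher and 5.59% lower in skeletal than in visceral MNs, 5.69% and 4.96% in skeletal MNs than in interneurons, and 3.95% and 3.8% in visceral MNs than in interneurons. Hs3st3a1, Hs3st3b1, Hpse2 and Hhip averaged 10 CPM or more in 1 class only, so their calls lean on the filter, but they are kept in the counts below. Of 12 genes of chain synthesis, 10 were tested: against interneurons, skeletal MNs had 2 lower, Xylt1, which starts the chain (log2 difference -1.77, adjusted p = 2.05e-10), and Ext1, which lengthens it (-1.16, adjusted p = 8.54e-11), and visceral MNs had 1 higher, Extl3 (1.08, adjusted p = 8.46e-11). Median log2 differences of this list were 0.17 and -0.03, beside 0.02 and 0.05 over all genes.

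Of the sulfation genes, 15 were tested: 6 were higher and 3 lower in skeletal than in visceral MNs (all genes: 6.22% and 5.59%). Against interneurons, 3 were higher and 3 lower in skeletal MNs (all genes: 5.69% and 4.96%), and 0 higher and 2 lower in visceral MNs (all genes: 3.95% and 3.8%). Hs3st3a1 and Hs3st3b1, whose calls lean on the filter, are among both the 6 and the 3 genes higher in skeletal MNs, so these counts are not set against the shares. Hs3st3a1, a 3-O-sulfotransferase, was at 35.0 ± 4.86 CPM in skeletal MNs against 2.10 ± 1.02 in visceral MNs and 0.885 ± 0.683 in interneurons (SD, n = 9), and Hs3st3b1 and Hs3st2 were also higher in skeletal than in visceral MNs. Ndst4, Hs6st3 and Glce were lower there, Ndst4 at 91.7 ± 36.0 against 318 ± 113 CPM. Hs3st5 (log2 difference -2.20) and Hs3st4 (-1.78) were the 2 lower in visceral MNs than in interneurons.

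Of 5 genes that release glypicans or cut chains, 2 were tested and Hpse2 was lower in visceral MNs than in interneurons (-1.02). No p is given for Hpse2, because its call leans on the filter. Of 8 other proteoglycans tested, Col18a1 was lower in both MN classes than in interneurons (-3.50 and -2.45), and Spock1 was lower in visceral MNs than in both other classes. Of 18 partners tested, 2 were higher and 6 lower in skeletal MNs than in interneurons (all genes: 5.69% and 4.96%). In visceral MNs 4 were higher and 1 lower than in interneurons (all genes: 3.95% and 3.8%), with Hhip, whose call leans on the filter, among the 4. Between MN classes 1 was higher and 4 lower in skeletal than in visceral MNs (all genes: 6.22% and 5.59%). The guidance ligands Slit3 and Slit2 were higher in both MN classes than in interneurons (Slit3: 2.08 in skeletal and 2.80 in visceral MNs), whereas Slit1 was lower in skeletal MNs (-2.90), as were the netrin receptors Unc5d and Unc5c. Hhip, the Hedgehog-binding protein, averaged 13.998 ± 10.1 CPM in visceral MNs, against 0.371 ± 0.363 CPM in skeletal MNs and 0.448 ± 0.261 CPM among interneurons (SD, n = 9).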

How the data were processed

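The authors prepared 10x Chromium 3′ libraries from sorted GFP+ nuclei, aligned the reads with Cell Ranger 3.1.0 (build mm10, per the labels), removed outlying nuclei and normalized each library apart with SCTransform in Seurat. The deposited values are whole numbers corrected by that model, and were treated as a score, not as raw counts, so no count model was used. The deposited annotation gave library, class and cluster of each nucleus. No doublet caller was run here. Values were summed per library and class or cluster, scaled to CPM and tested on log2(CPM + 5) with limma 3.58.1 in R 4.3.3 (trend, Benjamini-Hochberg adjustment over all genes with at least 10 CPM in 3 sums), with library as a term between classes, region alone between regions and region beside sex. The step was tested on simulated data, and repeated with pseudocounts of 1 and 20, a stricter filter, median-of-ratios scaling, the replicate number as a block and each replicate left out. The members and gene lists were chosen with earlier results of these data known, so nothing here is independent of them. Named genes were the 8 members, up to 3 called genes per direction of each list, and the 3 genes most like each member. Same-numbered libraries come from the same mice by the methods and pool labels. The correlation of their deviations from region means, over genes, ran from -0.220 to 0.922, and was lowest where cervical replicate 3 was one of the pair. The p-values measure the spread between libraries, which hold 3 levels of the same 3 pools of mice; each sex is 1 pool, so its p does not measure spread between pools. Depth limits low values: nuclei had medians of 4712 to 16127 corrected counts, and the thinning to 4600 left out 1384 of 16042 nuclei. A further marker of interneurons is not reported here.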

Additional observations from a re-analysis of the deposited data

Results flagged for a closer look

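Gpc4 differed between levels of the cord in opposite directions in 2 classes: lumbar/sacral minus rostral was 0.51 on the log2 scale in visceral MNs and -0.95 in interneurons, 1.46 apart, and all 3 pools moved one way in visceral MNs and the other way in interneurons. The difference between the classes was not tested, since the gene was chosen on this contrast, and the visceral values rest on 31 corrected counts over 3 lumbar/sacral libraries. In 21 sets of 6 rostral libraries, 1 set for each member and class, no library stood apart from the others by Dixon's criterion.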

How the results depend on the processing

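At a pseudocount of 20, 669 genes were called between skeletal and visceral MNs, 626 between skeletal MNs and interneurons and 429 between visceral MNs and interneurons, and with 10 corrected counts asked for in every sum 780, 704 and 471 (1333, 1203 and 875 as reported). At that pseudocount Gpc3 (-0.70) between skeletal and visceral MNs and Sulf2 (0.83) between visceral MNs and interneurons fell short of the size asked for. The other calls of Gpc3, Gpc5, Gpc6 and Sulf2 between classes held in the alternatives run. Values that were not called changed sign: Gpc4 between skeletal and visceral MNs ran from -0.073 to 0.099 over single pools left out and was -0.015 without the 2 libraries against their Hox genes, Gpc5 was -0.22 without them, and Sulf1 between skeletal MNs and interneurons was -0.013 with median-of-ratios scaling and -0.018 without them. The cause was not tested.

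Between levels of the cord, members without overlap numbered 1 in skeletal and 1 in visceral MNs (2 and 4 as reported) with 10 corrected counts in every sum, which leaves the low genes out. Over single pools left out they numbered 3 to 5 in skeletal MNs and 3 to 4 in interneurons (2 as reported in each), fewer samples making overlap less likely. The highest counts came without replicate 1. The share of all genes without overlap was not worked out for any of these settings, so the counts are not read as results about the members.

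Between cervical and thoracic libraries, 1 gene was called in skeletal sums without the 2 libraries against their Hox genes (0 as reported). The replicate block left 0 genes called there in each class and 1333, 1201 and 875 between classes, and changed no call of a member. Between sexes, single libraries left out gave 0 to 1329 called genes in skeletal, 0 to 425 in visceral and 0 to 1331 in interneuron sums, with the highest without cervical replicate 3 and nearly as many (1314, 362 and 1251) without cervical replicate 2. With 10 corrected counts in every sum 0, 0 and 0 genes were called, and in interneurons 8 with median-of-ratios scaling and 8 without the region term. No member was called between cervical and thoracic libraries or between sexes in any of the settings run. The settings without the 2 libraries and without the region term were chosen after seeing the data.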
